A study of Mus musculus with 2 samples.

Results

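The nuclear receptor genes Nr4a1, Nr4a2 and Nr4a3 and the high mobility group factor genes Tox and Tox2 were followed across the immune cells of 2 mouse tumours. They were found by symbol and make up 5 of the 31055 genes in each count matrix. The cells were leukocytes of untreated FVB mice that carried squamous cell carcinomas under the skin. The carcinoma lines CIT6 with YFP and CIT9 with RFP had been injected together, so that tumours were mosaics of both. Sections were barcoded with light-printed codes (ZipSeq), digested, sorted for the leukocyte surface protein CD45 and profiled with 10x 3' v3 single-cell RNA sequencing. Both libraries form 1 group and keep the names replicate 1 and replicate 3. The labels give neither the age of the mice nor whether the tumours grew in separate animals, so p-values speak only for these 2 tumours. They rest on how far differences between classes vary from 1 tumour to the other, with a spread estimated over all classes of a fit.

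NR4A proteins are orphan nuclear receptors whose genes are switched on rapidly, as immediate early genes, when antigen receptors, inflammatory signals or growth factors reach a cell. In T cells they are induced downstream of calcium and NFAT, restrain effector genes and are known for their part in the dysfunction of tumour-infiltrating cells. TOX is induced by lasting antigen receptor signals, supports the persistence of exhausted CD8 T cells and is also needed for the development of CD4 T cells and of innate lymphocytes. TOX2 belongs to the same family and is known from follicular helper and exhausted T cells. Immediate early genes can also be induced while tissue is digested, and all cells here passed through a digest.

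In the GRCm38 build the GENCODE M21 annotation places Nr4a1 at chr15:101254269-101274795 on the plus strand, Nr4a2 at chr2:57106830-57124003 on the minus strand and Nr4a3 at chr4:48045153-48086447 on the plus strand. Tox lies at chr4:6686353-6991557 on the minus strand and Tox2 at chr2:163203125-163324170 on the plus strand. The Nr4a genes are known targets of CREB, which binds the cAMP response element, so the 250 bases before each RefSeq start (GRCm38.p6) were searched for the core of that element, TGACG, on both strands. Matches are in capitals below, read on the strand of the gene, and a capital CGTCA is the core on the other strand.
Nr4a1: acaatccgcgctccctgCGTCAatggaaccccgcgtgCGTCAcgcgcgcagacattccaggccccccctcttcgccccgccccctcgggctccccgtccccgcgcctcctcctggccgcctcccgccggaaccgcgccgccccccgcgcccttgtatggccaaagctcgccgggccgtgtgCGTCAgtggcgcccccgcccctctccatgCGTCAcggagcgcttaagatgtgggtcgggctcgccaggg
Nr4a2: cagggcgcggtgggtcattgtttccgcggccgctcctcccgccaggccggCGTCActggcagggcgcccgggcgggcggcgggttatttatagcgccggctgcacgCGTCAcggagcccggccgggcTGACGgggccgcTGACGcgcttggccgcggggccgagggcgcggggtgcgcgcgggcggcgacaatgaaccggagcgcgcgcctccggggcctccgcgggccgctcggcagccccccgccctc
Nr4a3: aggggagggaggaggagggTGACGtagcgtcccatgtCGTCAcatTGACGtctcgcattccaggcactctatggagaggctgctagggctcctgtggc
The windows are chr15:101266596-101266845 for Nr4a1 and chr2:57124004-57124253 for Nr4a2. The Nr4a1 window lies inside the GENCODE gene, outside its exons. The Nr4a3 window is chr4:48045055-48045304, of which the 98 bases before the first GENCODE exon are printed, with 3 of its 4 matches. Each of the 3 windows held 4 separate matches. Of 32851 RefSeq windows of this length, 17.8% held at least 1 match and 0.0487% (16 windows) held 4 or more. These were not matched for base composition, and the Nr4a1, Nr4a2 and Nr4a3 windows are 74.4%, 80.0% and 63.6% G and C. The full palindrome TGACGTCA was in 1.55% of windows and the NR4A monomer element AAAGGTCA in 1.34%, and neither was in the Nr4a windows. Tox2 has 5 RefSeq windows, of which 1 held 1 match, and Tox had no window among those searched. A match describes letters and shows no binding.

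**Figure D1:**
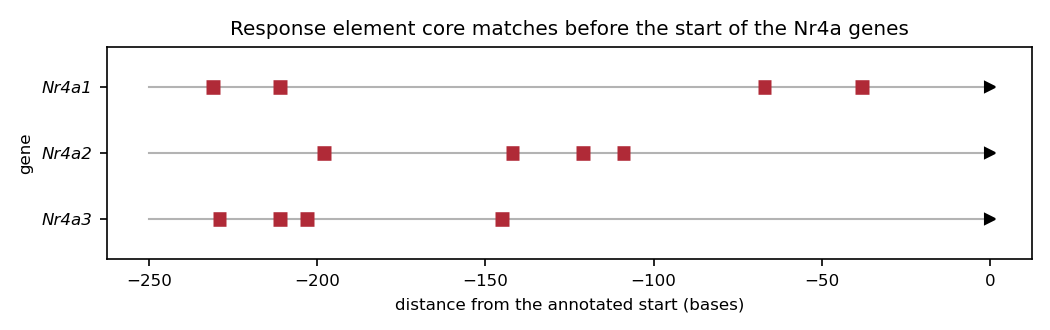
Position of each match to the cAMP response element core (red blocks, both strands) in the 250 bases before the RefSeq start (black triangle) of Nr4a1, Nr4a2 and Nr4a3. The x axis is the distance from the start in bases. Each window holds 4 matches, which lie between 233 and 36 bases before the start in Nr4a1, between 200 and 107 in Nr4a2 and between 231 and 143 in Nr4a3.

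The libraries held 89040909 gene UMIs (unique molecular identifiers) in replicate 1 and 170328781 in replicate 3, and 4818 and 6734 barcodes were called cells, with medians of 16798 and 21345.5 UMIs. Classes were gated on fixed markers that do not include the 5 genes. T cells needed at least 4 of 6 T cell receptor and CD3 genes, and macrophages at least 3000 CPM of summed C1q genes. This gave 410 and 789 T cells, 81 and 156 natural killer (NK) cells, 11 and 155 plasmacytoid dendritic cells (DCs), 65 and 104 conventional DCs, 101 and 496 monocytes, 2593 and 2980 macrophages, and 379 and 31 neutrophils. T cells were divided into 36 and 245 CD8 T cells, 199 and 184 Foxp3 T cells, 78 and 154 CD4 T cells and 97 and 206 others. Conventional DCs were divided into 13 and 20 activated DCs, which carry Ccr7, Fscn1, Ccl22, Il4i1 or Cacnb3, and 52 and 84 others. The T gate's 6 markers were all detected in the T cells of both tumours, which the gate itself largely ensures. Of those 6, Cd3d and Cd3e stood at 0 in NK cells of both tumours, and Trac stood at 0 in NK cells of replicate 1. The rest were present, and the list summed to 1557 and 1446 CPM in NK cells, against 5984 and 6096 CPM in T cells. T cells were shallower (medians of 4197 and 6398 UMIs) than macrophages (19243 and 24529). The libraries shared 9 cell barcodes. Levels are in CPM, the UMIs of a gene per 1000000 summed gene UMIs of all cells of a class in 1 tumour, with exact 95% Poisson intervals that cover counting error only.

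**Figure D2:**
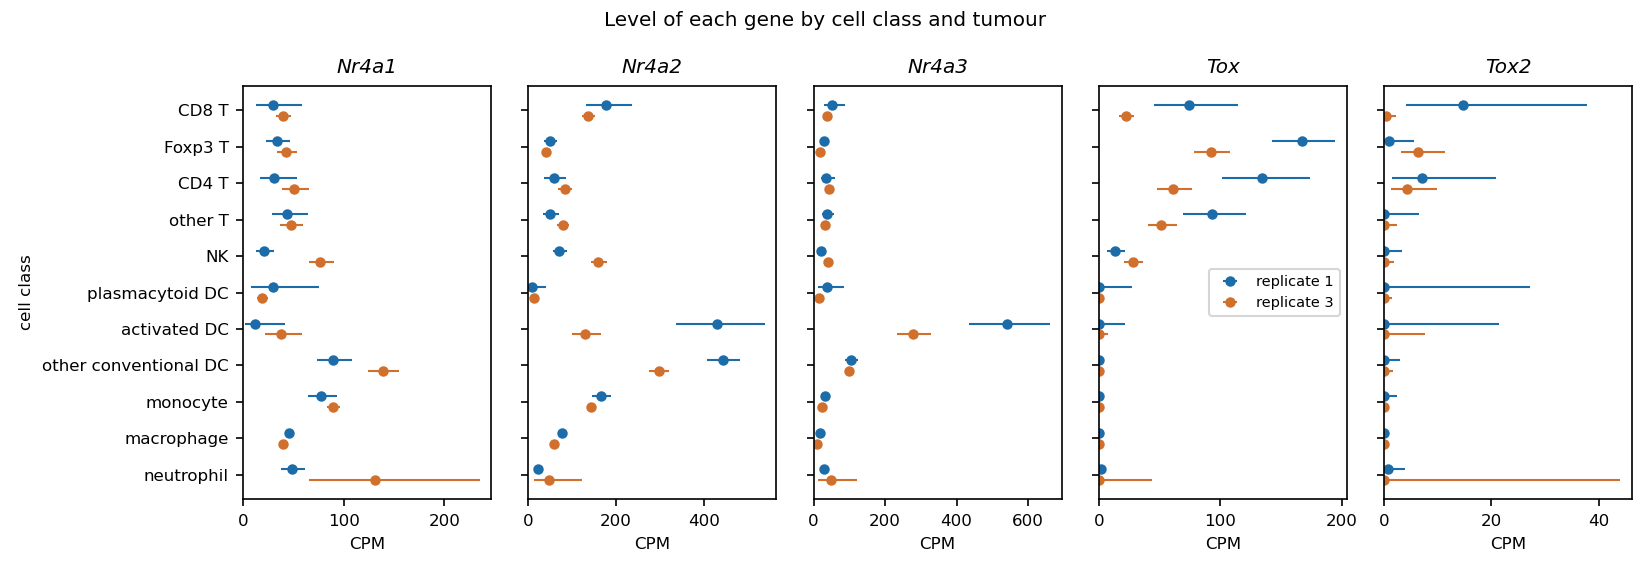
Level of each of the 5 genes in 11 cell classes (y axis) in CPM (x axis, a separate scale for each gene), with exact 95% Poisson intervals. Blue points are replicate 1 and orange points replicate 3. Nr4a3 is highest in activated DCs of both tumours (540 and 278 CPM), and Tox lies in T and NK cells.

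The Nr4a genes were highest in conventional dendritic cells, though not in the same ones. By mean level Nr4a1 and Nr4a2 were highest in the conventional DCs outside the activated gate, and Nr4a3 in the activated DCs, which are the mature, migratory state that carries antigen to lymph nodes. Among the gated classes macrophages held the largest share of the UMIs of these genes, with 63.5% and 44.5% of all Nr4a1 UMIs of called cells, 57.2% and 39.9% of Nr4a2 and 49.6% and 32.2% of Nr4a3 (replicate 1 and replicate 3). Their share of cells was 53.8% and 44.3%. Conventional DCs were 1.35% and 1.54% of cells and held 11.7% and 13.5% of the Nr4a3 UMIs.

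Nr4a3, the NR4A gene often followed in DC maturation, stood at 540 CPM (436 to 662) in the activated DCs of replicate 1 and 278 CPM (233 to 329) in those of replicate 3, a mean of 409 ± 186 (SD, n = 2). In the other conventional DCs it stood at 104 and 99.5 CPM, a mean of 102 ± 3.10 (SD, n = 2). In macrophages it stood at 18.2 and 10.4 CPM. Both activated DC values lay above every value of every other class, and both values of the other conventional DCs lay above every remaining class. Of the activated DCs, 12 of 13 and 19 of 20 had an Nr4a3 UMI, and after thinning each cell to 1000 UMIs the expected shares were 34.6% and 25.8%, against 1.71% and 0.993% of macrophages. In edgeR's quasi-likelihood test on class sums, with the tumour as a block and Benjamini-Hochberg adjustment over all genes, Nr4a3 was higher in activated than in other conventional DCs by 1.90 ± 0.277 (log2, SE; adjusted p = 7.95e-05), with per-tumour ratios of 2.33 and 1.52. That test called 8.62% of 10356 genes, 5.24% higher and 3.38% lower in activated DCs. It was higher in conventional DCs than in macrophages by 3.41 ± 0.259 (log2, SE; adjusted p = 3.80e-07), where 22.7% of 10567 genes were called, 10.5% higher and 12.2% lower.

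Nr4a2 was 444 CPM (408 to 482) in the other conventional DCs of replicate 1 and 298 CPM (276 to 321) in those of replicate 3. In activated DCs it was 430 CPM (337 to 539) and 128 CPM (98.5 to 165), so the tumours differed there and the class ranges overlapped. The difference between activated and other conventional DCs was -0.56 ± 0.391 (log2, SE) and did not pass (edgeR adjusted p = 0.443). In macrophages Nr4a2 was 76.1 and 57.7 CPM, and all conventional DCs together were higher than macrophages by 2.45 ± 0.336 (log2, SE; edgeR adjusted p = 8.34e-05). A UMI of Nr4a2 was found in 93.8% and 88.5% of conventional DCs, or 32.0% and 21.4% of them at 1000 UMIs a cell.

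Nr4a1, also known as Nur77 and widely used as a reporter of antigen receptor signals, was 89.6 CPM (73.8 to 108) and 139 CPM (124 to 155) in the other conventional DCs. In activated DCs it was 11.6 CPM (1.41 to 42.0, from 2 UMIs) and 37.3 CPM (22.1 to 58.9). Both activated DC values lay below both values of the other conventional DCs, and the difference was -2.01 ± 0.442 (log2, SE; edgeR adjusted p = 0.00504), with per-tumour ratios of -2.98 and -1.85. Nr4a1 and Nr4a3 thus passed in opposite directions between the same DC classes. The whole T marker list was at 0 in activated DCs of replicate 1 and summed to 14.5 CPM in those of replicate 3. Their macrophage markers summed to 87.1 and 543 CPM, against 17017 and 17145 CPM in macrophages, and the part of such RNA in these results was not tested.

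Conventional DCs were higher than macrophages in Nr4a1 by 1.25 ± 0.286 (log2, SE; edgeR adjusted p = 0.00509), from 45.3 and 39.9 CPM in macrophages. Without the tumour block that adjusted p was 0.0555. All 3 Nr4a genes were therefore higher in conventional DCs, against 10.5% of all genes. Conventional DCs with an Xcr1, Clec9a or Gcsam UMI and no Cd209a UMI (15 and 31 cells) are type 1 by their markers, and those with Cd209a and none of the 3 (32 and 44 cells) are type 2. Nr4a2 was 582 and 370 CPM in the former and 354 and 241 CPM in the latter. Nr4a1 ran the other way, at 70.3 and 109 CPM in the former and 106 and 169 CPM in the latter, and so did Nr4a3, at 63.7 and 37.8 against 128 and 151 CPM. Egr1 moved with Nr4a1 and Nr4a3, at 28.6 and 36.8 against 163 and 377 CPM, and so did Jun, at 160 and 308 against 347 and 575 CPM. Neither gene's CPM intervals overlapped within a tumour. By cell the split was less clear in replicate 1, where 7 of 15 and 13 of 32 cells had an Egr1 UMI. There 27 of the 112 Egr1 UMIs of the latter came from 1 cell. Jun was in 73.3% (44.9% to 92.2%) and 93.8% (79.2% to 99.2%) of these cells. Fos was lower in the former in replicate 3 and overlapped in replicate 1. The part of these genes was not tested. These splits carry no test. Within each tumour the CPM intervals of the Nr4a2 and Nr4a3 values of both kinds did not overlap. The shares of cells with a UMI were close in replicate 1, at 93.3% and 90.6% for Nr4a2 and 66.7% and 65.6% for Nr4a3. Plasmacytoid DCs had the lowest Nr4a2 of all classes, 7.40 and 12.7 CPM, with 1 and 30 UMIs.

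Monocytes, the recruited precursors of tissue macrophages, lay between conventional DCs and macrophages in Nr4a2, at 165 and 143 CPM. They were higher than macrophages by 1.12 ± 0.327 (log2, SE; edgeR adjusted p = 0.0469), where 8.83% of genes were called, 4.21% higher and 4.62% lower. That call was lost without the tumour block (adjusted p = 0.157), with DESeq2's size factors (0.0503), with DESeq2's Wald test (0.0513) and after subtraction of expected free RNA (0.110), while the fold change stayed between 1.08 and 1.26. Nr4a1 was 77.6 and 89.3 CPM in monocytes, a difference from macrophages of 0.85 ± 0.283 (log2, SE; edgeR adjusted p = 0.0811). Nr4a3 was 32.0 and 22.2 CPM, a difference of 0.83 ± 0.271 (log2, SE; edgeR adjusted p = 0.0754). Both missed the threshold in the planned test and passed with stricter gates (adjusted p = 0.0369 and 0.0274) and with no filter on low counts (0.00525 and 0.0131). Nr4a3 also passed with a higher UMI minimum for cells (0.0431).

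**Figure D3:**
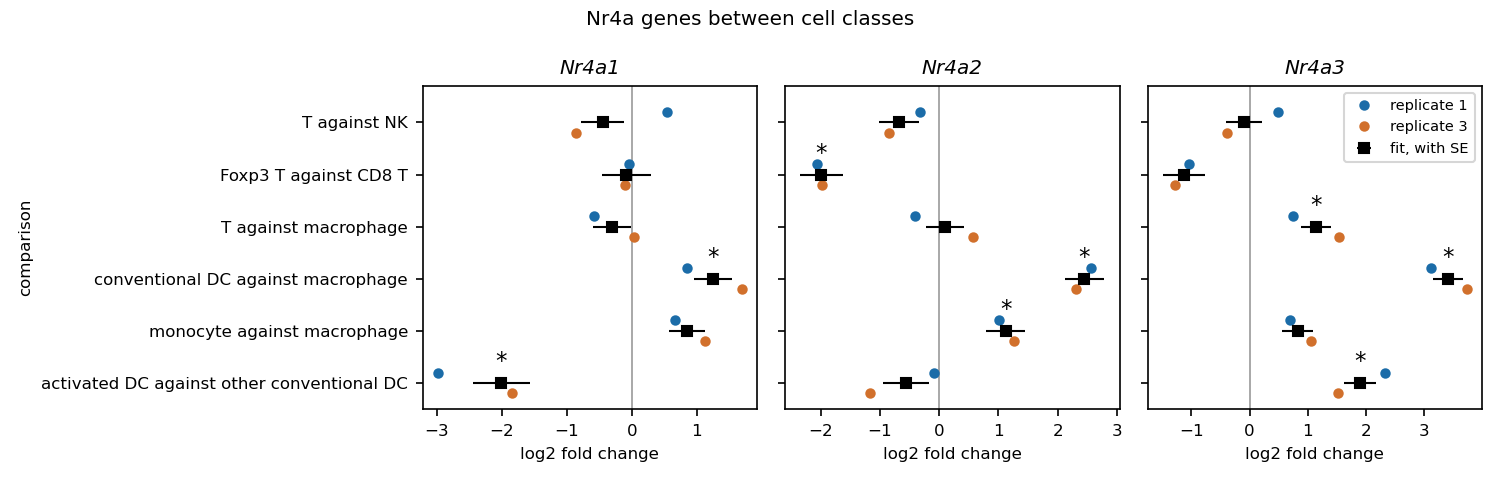
Log2 fold change (x axis) of Nr4a1, Nr4a2 and Nr4a3 in 6 comparisons of cell classes (y axis). Black squares are the edgeR estimates with their standard errors, blue and orange points the ratios within replicate 1 and replicate 3, and an asterisk marks an adjusted p under 0.05. All 3 genes are marked for conventional DCs against macrophages, and Nr4a1 and Nr4a3 lie on opposite sides of 0 for activated against other conventional DCs.

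Among T cells, Nr4a2 was highest in CD8 T cells, the cytotoxic subset in which exhaustion is best described. It was 178 CPM (131 to 235) and 137 CPM (123 to 152) in CD8 T cells and 49.2 and 40.3 CPM in Foxp3 T cells, the regulatory subset. The CD4 T cells (57.3 and 82.6 CPM) and other T cells (49.0 and 77.8 CPM) also lay below both CD8 values. At 1000 UMIs a cell, 18.0% and 12.3% of CD8 T cells had an Nr4a2 UMI, against 3.43% and 4.22% of Foxp3 T cells. The difference of Foxp3 from CD8 T cells was -1.99 ± 0.357 (log2, SE; edgeR adjusted p = 0.00181), with per-tumour ratios of -2.06 and -1.97, in a test that called 5.62% of 10223 genes, 3.12% higher and 2.5% lower in Foxp3 T cells.

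Nr4a1 showed no such order, with 29.6 and 39.4 CPM in CD8 T cells and 33.2 and 42.6 CPM in Foxp3 T cells, a difference of -0.09 (log2; edgeR adjusted p = 0.970). Nr4a3 was 51.8 and 37.5 CPM in CD8 T cells and 29.1 and 17.9 CPM in Foxp3 T cells. Its difference of -1.13 ± 0.361 (log2, SE) missed the threshold (edgeR adjusted p = 0.0785) and passed with no filter on low counts (adjusted p = 0.0206). In the CD4 T cells of replicate 3, 26 of the 52 Nr4a3 UMIs came from 1 cell.

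Between T cells and NK cells, the innate cytotoxic lymphocytes, none of the Nr4a genes passed edgeR's test, in which 10% of 10567 genes were called, 5.75% higher and 4.26% lower in T cells. Nr4a1 was 20.5 CPM (12.8 to 31.0) in NK cells of replicate 1 and 76.6 CPM (64.9 to 89.8) in those of replicate 3, and T cells stood at 35.0 and 43.7 CPM. T cells were therefore above NK cells in one tumour and below them in the other (per-tumour log2 ratios 0.54 and -0.86, edgeR adjusted p = 0.481). Nr4a2 was 70.8 and 160 CPM in NK cells and 66.0 and 91.2 CPM in T cells, a difference of -0.68 ± 0.341 (log2, SE; edgeR adjusted p = 0.267). Nr4a3 was 21.4 and 40.8 CPM in NK cells and 35.5 and 32.4 CPM in T cells (edgeR adjusted p = 0.910). All 3 genes were higher in NK cells of replicate 3 than in those of replicate 1, and Fos moved with them, from 126 to 407 CPM, as did Jun, from 120 to 309 CPM. Egr1 did not, at 47.5 and 42.8 CPM with overlapping intervals. Their part in the difference was not tested. The T marker list summed to 1557 and 1446 CPM in NK cells, where Cd3d and Cd3e stood at 0 in both tumours. The NK marker list summed to 12.4 and 23.5 CPM in T cells. The part of RNA from other cells in these levels was not tested either.

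T cells differed from macrophages in Nr4a3, which was higher by 1.14 ± 0.258 (log2, SE; edgeR adjusted p = 0.00198), in a comparison where 47.3% of genes were called, 22% higher and 25.3% lower in T cells. The differences in Nr4a1 (-0.31, adjusted p = 0.402) and Nr4a2 (0.10, adjusted p = 0.836) did not pass in the same edgeR test. Neutrophils, with 379 and 31 cells, held Nr4a1 at 48.4 CPM and 131 CPM (65.6 to 235, from 11 UMIs), so their range overlapped that of the conventional DCs.

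Ordered by mean level, Nr4a1 ran from the other conventional DCs (114 ± 34.8, SD, n = 2) through neutrophils and monocytes (83.5 ± 8.31) to plasmacytoid DCs (29.6 and 18.3 CPM). The single gap between neighbours without overlap of the tumours' values lay between monocytes and NK cells. It was narrow, from 77.6 down to 76.6 CPM, and neutrophils of replicate 1 (48.4 CPM) lay within the NK range (20.5 to 76.6 CPM). For Nr4a2 neighbours overlapped all the way from the other conventional DCs (371 ± 104) to neutrophils (35.3 ± 17.7). The plasmacytoid DCs (10.1 ± 3.78) lay below them by point values only, with 1 Nr4a2 UMI in the 11 cells of replicate 1. For Nr4a3 the gaps without overlap lay below the activated DCs and below the other conventional DCs. From CD8 T cells (44.7 ± 10.1) down to macrophages (14.3 ± 5.56) each class overlapped its neighbour.

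Tox was confined to lymphoid cells among the gated classes, apart from a few UMIs in macrophages and neutrophils. It was highest in Foxp3 T cells, at 167 CPM (142 to 194) in replicate 1 and 92.2 CPM (78.4 to 108) in replicate 3. CD4 T cells held 134 and 60.7 CPM, other T cells 92.7 and 51.2 CPM and CD8 T cells 74.0 CPM (45.2 to 114) and 22.0 CPM (16.7 to 28.6). In every T cell class the level in replicate 1 exceeded that in replicate 3, and the order of the 4 classes was the same in both tumours. The tumours' ranges of neighbouring T cell classes overlapped. NK cells held 13.0 and 27.7 CPM.

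No Tox UMI was found in plasmacytoid DCs, activated DCs, other conventional DCs or monocytes of either tumour. A count of 0 was taken to allow up to 3 UMIs, a 1-sided limit that lies below the upper end of the exact 2-sided interval (2.51 and 0.448 CPM in monocytes). This limit is 2.04 and 0.364 CPM in monocytes and 2.38 and 1.31 CPM in other conventional DCs. The small activated DC classes limit Tox less, to 17.4 and 6.21 CPM. Macrophages held 8 and 12 Tox UMIs, 0.154 and 0.144 CPM, and 0.231% and 0.336% of them had one. Among Foxp3 T cells the share was 53.3% and 48.4%, or 16.5% and 10.1% at 1000 UMIs a cell, although macrophages were the deeper class. T cells were 8.51% and 11.7% of called cells and held 58.3% and 61.6% of the Tox UMIs.

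Foxp3 T cells were higher in Tox than CD8 T cells by 1.59 ± 0.371 (log2, SE; edgeR adjusted p = 0.0171), with per-tumour ratios of 0.96 and 1.85. So Tox and Nr4a2 passed in opposite directions between these T cells. The Tox call was lost without the tumour block (adjusted p = 0.195), with DESeq2's Wald test (0.141), with a higher UMI minimum for cells (0.131) and after subtraction of free RNA (0.0777). The Nr4a2 call was kept under each of those settings. The higher UMI minimum (5701 and 9218) lay above the median depth of Foxp3 T cells (4023 and 6415.5 UMIs) and of all T cells (4197 and 6398). It therefore removed most of these cells. T cells were higher in Tox than NK cells by 1.74 ± 0.376 (log2, SE; edgeR adjusted p = 0.0100), in the test that called 5.75% of genes higher. That ratio was 3.09 in replicate 1 and 0.86 in replicate 3, and the call was lost with the higher UMI minimum (adjusted p = 0.0686) and after subtraction of free RNA (0.0746). Against macrophages T cells were higher by 8.88 ± 0.454 (log2, SE; edgeR adjusted p = 7.40e-09).

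Tox2 was close to the limit of detection. T cells held 8 and 17 of its 15 and 25 UMIs in called cells, 3.55 and 2.44 CPM, and macrophages 3 and 2 UMIs. CD8 T cells held 4 and 1 UMIs, Foxp3 T cells 1 and 11 and CD4 T cells 3 and 5. No UMI was found in NK cells, DCs, monocytes or the other T cells of either tumour. The order of the T cell classes differed between the tumours, and Tox2 was not tested in any comparison because its counts were too low.

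T cells were next divided by a UMI of Pdcd1, the gene of the inhibitory receptor PD-1, which marks activated and exhausted T cells. Pdcd1 itself was 122 and 88.5 CPM in CD8 T cells, 112 and 81.7 CPM in CD4 T cells and 55.3 and 58.8 CPM in Foxp3 T cells. Nr4a2 was 346 CPM (241 to 482) and 219 CPM (190 to 251) in CD8 T cells with a Pdcd1 UMI (14 and 83 cells). In CD8 T cells without one it was 76.8 CPM (40.9 to 131) and 88.9 CPM (75.0 to 105). These CPM intervals did not overlap in either tumour, and the median depths of both kinds of cell were close (6566.5 against 6399.5 UMIs and 8839 against 8251). In replicate 1, 11 of the 35 Nr4a2 UMIs with a Pdcd1 UMI came from 1 cell. The shares of cells with an Nr4a2 UMI there were 64.3% (35.1% to 87.2%) against 40.9% (20.7% to 63.6%), with overlapping intervals. In replicate 3 they were 65.1% (53.8% to 75.2%) against 41.4% (33.7% to 49.4%), without overlap. Jun and Egr1 were also higher with a Pdcd1 UMI in CD8 T cells of replicate 3, at 213 against 150 CPM and 54.5 against 28.2 CPM, without overlap of the intervals. In replicate 1 they were 247 against 136 CPM and 89.0 against 59.1 CPM with overlapping intervals, and Fos overlapped in both tumours (237 against 201 and 231 against 255 CPM). Their part in the Nr4a2 values was not tested. In Foxp3 T cells the split followed by CPM in replicate 1 (118 against 28.7 CPM) and not in replicate 3 (44.5 against 38.2 CPM, with overlapping intervals). In replicate 1 the shares of Foxp3 T cells with an Nr4a2 UMI overlapped, at 24.3% (11.8% to 41.2%) against 10.5% (6.23% to 16.3%). Those with a Pdcd1 UMI were also deeper there (medians of 4786 against 4004.5 UMIs). In CD4 T cells the CPM intervals overlapped in both tumours (62.2 against 55.5 and 110 against 66.5 CPM).

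For Tox the intervals of the CD8 T cells overlapped in both tumours. It was 98.9 CPM (47.4 to 182) and 20.9 CPM (12.8 to 32.3) with a Pdcd1 UMI and 59.1 CPM (28.3 to 109) and 22.7 CPM without one. In CD4 T cells Tox was 222 and 89.5 CPM with a Pdcd1 UMI (15 and 40 cells) and 101 and 43.9 CPM without. The CPM intervals did not overlap within either tumour, though they nearly met in replicate 1 (143.8 to 328 and 68.8 to 143.7). There the shares of cells with a Tox UMI had overlapping intervals, at 73.3% (44.9% to 92.2%) against 34.9% (23.3% to 48.0%). The CD4 T cells with a Pdcd1 UMI were deeper in both tumours, with medians of 4881 against 3805 UMIs and 7731.5 against 4829.5. Nr4a3 in CD8 T cells was 79.1 and 55.5 CPM with a Pdcd1 UMI and 35.5 and 27.0 CPM without, and the intervals overlapped in replicate 1. Nr4a1 was 39.6 and 51.3 CPM against 23.6 and 32.5 CPM, with overlapping intervals in both tumours. These splits describe cells of the same libraries and carry no test.

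**Figure D4:**
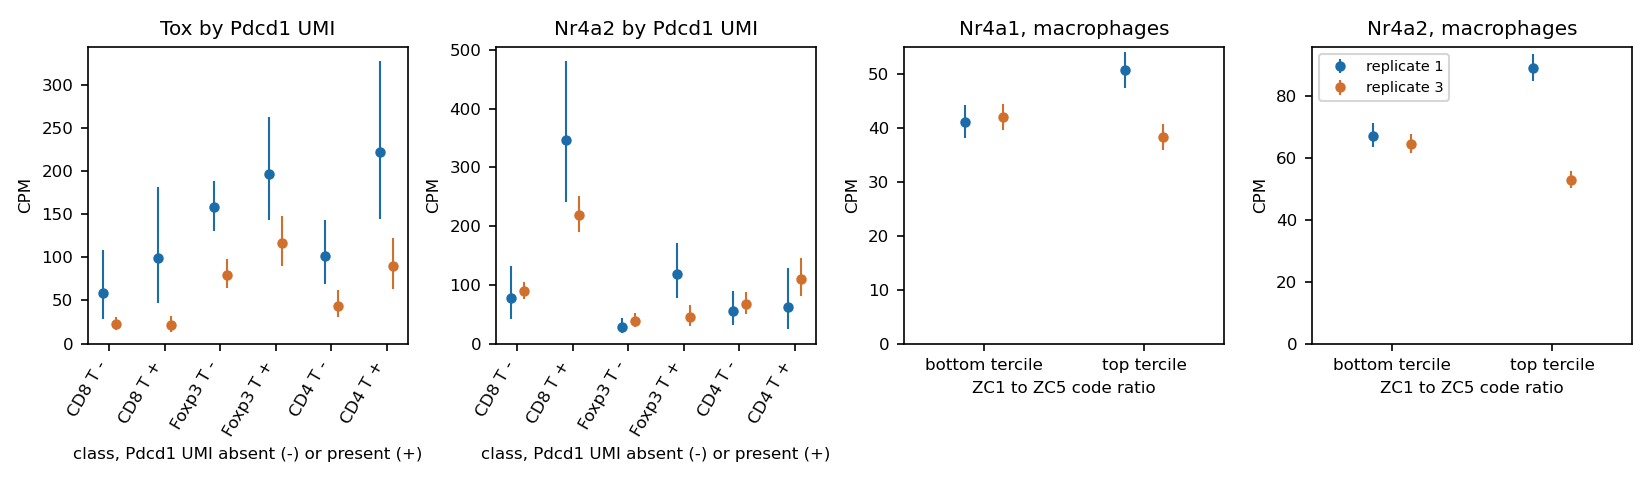
Levels in CPM (y axes, from 0) with exact 95% Poisson intervals in replicate 1 (blue) and replicate 3 (orange). The left panels give Tox and Nr4a2 in T cells without (-) and with (+) a Pdcd1 UMI, and the right panels Nr4a1 and Nr4a2 in macrophages of the bottom and top tercile of the ZC1 to ZC5 code ratio. Nr4a2 in CD8 T cells is higher with a Pdcd1 UMI in both tumours, while the macrophage values move in opposite directions in the tumours, with overlapping intervals for Nr4a1 in replicate 3.

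The spatial codes gave no shared order in macrophages. The labels do not say which code marks which region, and ZC1 and ZC5 are the codes present in both libraries. In replicate 1 Nr4a2 was 89.2 CPM (84.8 to 93.7) in the tercile of macrophages with the highest ZC1 to ZC5 ratio and 67.2 CPM (63.4 to 71.2) in the tercile with the lowest. In replicate 3 the values were 53.0 CPM (50.3 to 55.8) and 64.6 CPM (61.7 to 67.7). Nr4a1 and Nr4a3 were likewise higher in the top tercile of replicate 1 (50.6 against 41.1 CPM and 21.3 against 16.7 CPM) and lower in that of replicate 3 (38.2 against 41.9 CPM and 7.98 against 11.7 CPM). The CPM intervals of Nr4a1 in replicate 3 overlapped (35.9 to 40.6 and 39.6 to 44.4). Shares of cells with an Nr4a2 UMI had overlapping intervals in both tumours. They were 40.3% (37.0% to 43.6%) in the top and 34.9% (31.7% to 38.1%) in the bottom tercile of replicate 1. In replicate 3 they were 41.9% (38.8% to 45.0%) and 46.8% (43.6% to 49.9%). The share intervals of Nr4a1 overlapped in both tumours, and those of Nr4a3 in replicate 1. The median ZC1 and ZC5 counts were 277 and 175.5 UMIs in the top tercile of replicate 1 and 25 and 50 in that of replicate 3, so the terciles are not the same range of ratios in both tumours. Of the ungated cells with a C1q level between the limits (146 and 310), 118 and 255 had at most 2 T and 1 NK markers. These cells held 45.7 and 42.0 CPM of Nr4a1 and 73.6 and 72.2 CPM of Nr4a2.

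The genes most like each member in pattern were found by Pearson correlation of log2(CPM + 10) over 18 sums, 9 classes in 2 tumours, among 7500 genes. The sums share libraries and differ in depth, so these values only describe. Nr4a1 was closest to Csgalnact2 (r = 0.870), Timm10b (0.844) and Cdc42 (0.825), and Nr4a2 to Bri3bp (0.853), Rnf122 (0.840) and Lmo1 (0.825). Nr4a3 was closest to Ccnd3 (0.819), Btla (0.807) and Siglecg (0.770), and Btla, an inhibitory receptor of lymphocytes and DCs, was highest in the other conventional DCs, at 114 and 115 CPM. The activated DCs were too few to enter these sums. Tox had the closest matches, Faah (0.986), Camk4 (0.982) and Msi2 (0.976). Camk4, a calcium-dependent kinase, was 258 and 171 CPM in Foxp3 T cells and 0.313 and 0.281 CPM in macrophages. Among the members themselves, r was 0.639 for Nr4a2 with Nr4a3, 0.533 for Nr4a1 with Nr4a3, 0.432 for Nr4a1 with Nr4a2 and 0.581 for Tox with Tox2, and -0.604 for Tox with Nr4a1.

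**Figure D5:**
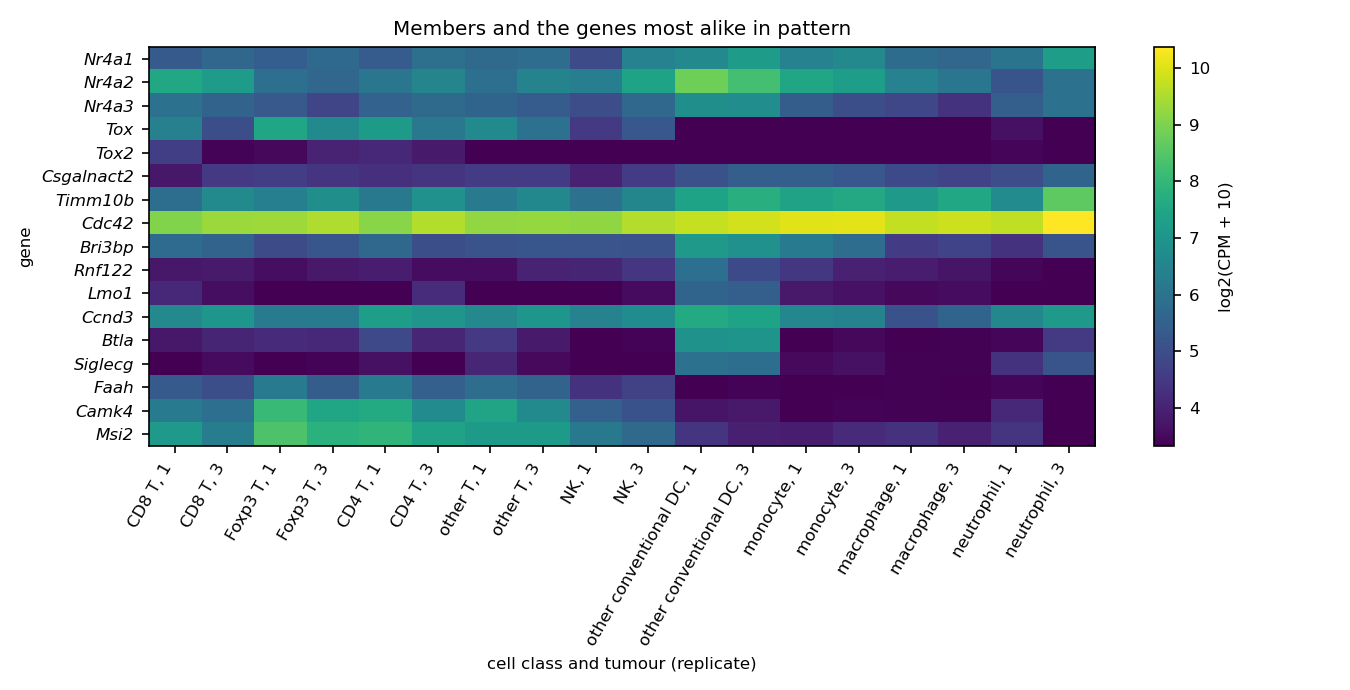
Log2(CPM + 10) (colour) of the 5 members and of the 3 genes most like each of Nr4a1, Nr4a2, Nr4a3 and Tox, by class and tumour (columns). Each row is to be read along its length. Faah, Camk4 and Msi2 share with Tox high values in the T cell columns, and Nr4a2 is brightest in the other conventional DCs of both tumours.

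Other genes of the pathways were taken from fixed lists. Beside each count stands the share of all genes that edgeR's test called. Of 18 immediate early genes, 0 passed between T and NK cells, where 10% of all genes did. At an unadjusted p under 0.05, 1 of the 18 passed in edgeR's test, and DESeq2's Wald test called 0. In Foxp3 against CD8 T cells, where 2.5% of all genes were lower and 3.12% higher, 2 of the 18 were lower and 0 higher, Egr2 by -2.14 ± 0.565 and Btg2 by -1.15 ± 0.261 (log2, SE), with a list median of -0.23 against -0.01 over all genes. Egr2 is itself induced by NFAT in T cells. Fos, a general marker of such induction, was 215 and 246 CPM in CD8 T cells and 220 and 502 CPM in Foxp3 T cells.

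Against macrophages, T cells were lower in 7 and higher in 1 of these 18 genes, against 25.3% and 22% of all genes, with a list median of -0.51 against -0.03. The 8 called genes are close to the 47.3% called over all genes. Fos fell by 2.27 and Egr1 by 1.87 on the log2 scale. Conventional DCs were higher than macrophages in 2 of the 18, a share near the 10.5% of all genes, and lower in 0, against 12.2%. The 2 genes were Egr3 (3.01 ± 0.407) and Btg2 (1.15 ± 0.292, log2, SE), and the list median was -0.03 against -0.06. Fos was 1105 and 1639 CPM in the other conventional DCs and 1320 and 1629 CPM in macrophages. Monocytes were higher in Egr2 (1.14 ± 0.297) and Fosl2 (0.99 ± 0.285) and lower in 0 genes of the list, against 4.21% higher and 4.62% lower over all genes. Activated DCs were lower than the other conventional DCs in 5 of the 18 and higher in 0, against 3.38% and 5.24% of all genes, with a list median of -0.89 against -0.12. Klf2 (-2.45 ± 0.680), Egr1 (-2.03 ± 0.558) and Klf4 (-1.52 ± 0.459) were among them, and Egr3, with at most 3 UMIs in activated DCs, gets no fold. Nr4a3 thus passed upward and Nr4a1 downward in a comparison where 5 immediate early genes passed downward. The part of the digest in these levels was not tested.

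Of 14 genes of the NFAT and antigen receptor response, 3 were higher and 1 lower in Foxp3 than in CD8 T cells, against 3.12% and 2.5% of all genes, with a median of 0.41 against -0.01. Tnfrsf4, the costimulatory receptor OX40, was higher by 3.98 ± 0.357 and Rgs16, a G protein regulator, lower at -1.15 ± 0.274 (log2, SE). In activated against other conventional DCs 4 were higher and 1 lower, against 5.24% and 3.38% of all genes, with a median of 0.39 against -0.12, or 0.28 with genes at 3 or fewer UMIs in a class set to their bound. T cells were higher than NK cells in 5 and lower in 0 of them, against 5.75% and 4.26% of all genes. Monocytes differed from macrophages in 0 of the 14 in edgeR's test, where 8.83% of all genes were called. At an unadjusted p under 0.05, 3 of the 14 passed there, and DESeq2's Wald test called 1.

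Of 15 exhaustion-linked genes tested, 8 were higher and 3 lower in T than in NK cells, against 5.75% and 4.26% of all genes, with a median of 2.26 against 0.02. Ctla4, an inhibitory receptor, was higher by 4.36 ± 0.339 and Eomes, a cytotoxic lymphocyte factor, lower at -3.55 ± 0.338 (log2, SE). In Foxp3 against CD8 T cells 7 were higher and 2 lower, against 3.12% and 2.5% of all genes, with a median of 1.12 against -0.01. They included Cd160 at -5.42 ± 0.455, Maf at 5.23 ± 0.519 and Ctla4 at 2.55 ± 0.307. Ctla4 and Maf are also known genes of regulatory T cells. Of 11 stem-like and memory genes, 3 were lower and 2 higher in Foxp3 T cells, against the same shares of all genes and with a median of -0.25, and Tcf7, the factor of stem-like T cells, was lower at -4.67 ± 0.447. Of the NR4A dimer partners and other TOX genes, Rxra, Rxrb and Tox4 were tested and 0 passed between Foxp3 and CD8 T cells or between T and NK cells in edgeR's test. In each of these comparisons 1 of them had an unadjusted p under 0.05, and DESeq2's Wald test called 0. Rxra was lower than in macrophages in T cells (-1.10 ± 0.258) and in conventional DCs (-0.90 ± 0.295).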

How the data were processed

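The deposited matrices hold whole counts of UMIs per gene and barcode for both tumours, not normalised by the authors. Counting used Cell Ranger 4.0 on mm10, per the submitters' processing notes. Neither the annotation nor a filter on cells is named in the labels. Cells were called here at 1000 or more gene UMIs, 500 or more genes and at most 10% mitochondrial UMIs.

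The members and gene lists were chosen with earlier results of these data known. Gate thresholds were set after the gate genes had been seen, and 59 gate genes were not tested. A cell needed at least 4 T, 2 NK, 3 plasmacytoid DC, 3 activated DC, 2 conventional DC, 2 monocyte (with Ly6c2), 5 macrophage or 3 neutrophil markers. T cells could hold at most 1 NK marker and NK cells at most 2 T markers. Macrophages needed a C1q sum of at least 3000 CPM and the other classes one under 1000, which left 188 and 315 cells between the limits. Neutrophils needed 1% of UMIs from S100a8 and S100a9. Cells that passed more than 1 gate (277 and 105) were removed in place of a doublet caller, and 901 and 1918 cells passed none. Doublets of 1 class stay in.

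UMIs were summed per class and tumour and tested with edgeR 4.0.16 (limma 3.58.1, R 4.3.3): quasi-likelihood F-test, TMM, filterByExpr, tumour as a block, Benjamini-Hochberg over all genes, threshold 0.05. A class needed 20 cells or more per tumour to enter a fit, and classes shared 1 fit. For activated DCs, with 13 cells in replicate 1, the minimum was lowered to 10 after the cells had been counted. Standard errors come from the F statistic. No fold is given with 3 or fewer UMIs in a class. The block rests on shared tissue, since both classes came from the same tumour. Over 36 pairs of classes, between-tumour differences correlated at -0.00348 to 0.443 (median 0.170). Counts were simulated with the spread of each fit and with 200 genes changed by 2 on the log2 scale. The changed genes were drawn only from those above a minimum mean count, so recovery of genes with lower counts was not examined. The tests recovered 77% (Foxp3 against CD8 T, 10223 genes) to 98% (monocyte against macrophage, 10567 genes). They also called unchanged genes in each comparison, from 11 beside 154 recovered ones (Foxp3 against CD8 T) to 30 beside 196 (monocyte against macrophage).

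Named genes are the 5 members, the 3 most alike in pattern for each member that reached 20 CPM in 2 sums, and up to 4 called genes of largest fold per list. Alternatives were DESeq2 1.42.0, its size factors, no filter, no block, a higher UMI minimum (5701 and 9218), stricter gates and subtraction of free RNA (10% of each sum). Sums and figures used Python 3.11.15 with pandas 2.3.3, numpy 2.4.6, matplotlib 3.10.9 and scipy 1.17.1.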

Additional observations from a re-analysis of the deposited data

Results flagged for a closer look

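Signal of 4 members lay outside the compared classes, in cells that passed no gate and in barcodes with 100 or fewer UMIs, above what a count of 0 allows. In the cells without a class Nr4a1 was 47.0 CPM in replicate 1 and 46.7 in replicate 3, Nr4a2 94.7 and 78.7, Nr4a3 27.1 and 16.5 and Tox 11.5 and 2.99. In the near-empty barcodes Nr4a1 was 51.6 and 81.7 CPM, Nr4a2 84.7 and 95.8, Nr4a3 30.4 and 22.2 and Tox 28.9 and 4.6. Near-empty barcodes exceeded macrophages in each of these genes in both tumours, where macrophages held 45.3 and 39.9 CPM of Nr4a1, 76.1 and 57.7 of Nr4a2 and 18.2 and 10.4 of Nr4a3. They also exceeded T cells in Nr4a1 (35.0 and 43.7 CPM) and Nr4a2 (66.0 and 91.2 CPM), but not in Nr4a3 (35.5 and 32.4 CPM). The part of free RNA in low levels of the Nr4a genes was not tested beyond subtracting 10% of each sum. The Tox level of near-empty barcodes of replicate 1 exceeded that of NK cells there (13.0 CPM) and that of macrophages (0.154 CPM), and in replicate 3 it was below NK cells (27.7 CPM) and above macrophages (0.144 CPM). Ungated cells held 35.6% and 26.4% of all Tox UMIs of called cells, so the gated T cells do not hold all of them. Their cell types were not named here.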

How the results depend on the processing

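Member fold changes kept their direction in each called comparison under each alternative run. Of 21 member fold changes, alternatives with a test lost a call 11 times and gained one 6 times, and these are given beside the results. Without the tumour block, genes called fell from 1058 to 559 between T and NK cells, from 575 to 268 between Foxp3 and CD8 T cells, from 2399 to 1404 between conventional DCs and macrophages, from 933 to 252 between monocytes and macrophages and from 893 to 518 between activated and other conventional DCs. For monocytes against macrophages the count also moved to 1461 with DESeq2's Wald test, 1479 with no filter and 597 with free RNA subtracted, and the cause was not tested. With 1 tumour left out no residual degrees of freedom remain, so those values carry no test. Shares of cells with a UMI moved by more than the tumours' spread in 49 of 65 cases after thinning, which lowers depth by construction. Under the higher UMI minimum and the stricter gates 10 CPM values moved and 115 did not. Activated DCs (13 and 20 cells), CD8 T cells of replicate 1 (36) and the Tox2 counts limit what could be detected.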
